A study of Mus musculus with 12 samples.

Results

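The genes described here carry glucose into the cell, split it to pyruvate, exchange pyruvate with lactate and pass pyruvate into the mitochondrion. There were 34 of them, chosen by name and by step with earlier results of these data known. They were among 13318 genes listed in at least 1 of 6 RNA libraries from mouse cumulus cells, the somatic cells around the oocyte. Of the 34, 28 were listed in every library at a mean of 1 FPKM or more (FPKM is a read level scaled by length and by library depth) and were tested, and 6 were not. Cells from Kunming mice that had received FSH and FBS together over 18 hours (3 libraries) were set against cells labelled as untreated (3 libraries). FSH is a gonadotropin that drives cumulus expansion, and FBS is fetal bovine serum. FSH and FBS were never given apart, and no time in culture is stated for the untreated cells, so the effects of FSH, of FBS and of culture cannot be told apart. The labels name the cell type as granulosa cells of antral follicles, and do not say whether the oocyte had been removed in either group.

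Cumulus cells take up glucose and break it down readily, whereas the enclosed oocyte uses glucose poorly and depends on pyruvate that the cumulus cells hand over. Hexokinase and phosphofructokinase commit glucose to glycolysis. Lactate dehydrogenase is a tetramer of A and B subunits that turns pyruvate and lactate into each other, and subunit A is usually linked to lactate production. Pyruvate enters mitochondria through the MPC1 and MPC2 carrier, where the pyruvate dehydrogenase complex makes acetyl-CoA from it, and the pyruvate dehydrogenase kinases switch that complex off by phosphorylation.

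Promoter windows of the 4 genes on which the results below turn are shown, as RefSeq gives them for GRCm38.p6, 250 bases before to 50 after the start site, 5′ to 3′ on the gene's strand. Capitals mark ACGTG or GCGTG on either strand, the core letters of the hypoxia response element. CACGTG, the E-box, holds ACGTG on both strands. The windows lie at chr6:82774405-82774704 (minus strand) for Hk2, at chr7:46845554-46845853 (plus strand) for Ldha, at chr6:142507908-142508207 (minus strand) for Ldhb and at chr6:5496229-5496528 (minus strand) for Pdk4.
Hk2: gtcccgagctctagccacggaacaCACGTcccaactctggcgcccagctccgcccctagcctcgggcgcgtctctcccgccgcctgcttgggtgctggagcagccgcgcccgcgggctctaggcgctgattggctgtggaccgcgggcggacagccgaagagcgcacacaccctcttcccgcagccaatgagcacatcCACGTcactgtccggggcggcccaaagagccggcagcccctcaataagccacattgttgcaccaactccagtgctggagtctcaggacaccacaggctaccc
Ldha: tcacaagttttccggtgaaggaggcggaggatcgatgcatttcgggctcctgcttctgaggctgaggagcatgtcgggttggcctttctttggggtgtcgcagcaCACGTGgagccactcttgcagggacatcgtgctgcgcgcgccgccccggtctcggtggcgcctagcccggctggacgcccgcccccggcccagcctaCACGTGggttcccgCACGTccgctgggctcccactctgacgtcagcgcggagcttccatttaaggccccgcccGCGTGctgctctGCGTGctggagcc
Ldhb: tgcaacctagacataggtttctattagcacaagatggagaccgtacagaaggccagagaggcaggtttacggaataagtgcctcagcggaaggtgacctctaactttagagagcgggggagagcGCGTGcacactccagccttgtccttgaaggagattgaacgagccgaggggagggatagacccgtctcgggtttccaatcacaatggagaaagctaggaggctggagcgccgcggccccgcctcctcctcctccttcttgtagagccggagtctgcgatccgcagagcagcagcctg
Pdk4: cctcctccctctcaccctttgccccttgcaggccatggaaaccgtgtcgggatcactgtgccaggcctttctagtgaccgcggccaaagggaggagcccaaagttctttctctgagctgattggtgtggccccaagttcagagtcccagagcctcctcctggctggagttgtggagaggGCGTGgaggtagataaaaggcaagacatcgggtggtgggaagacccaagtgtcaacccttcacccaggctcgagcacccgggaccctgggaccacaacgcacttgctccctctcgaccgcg
The Ldha window held 7 such matches, counted on both strands, the Hk2 window 2, and the Ldhb and Pdk4 windows 1 each. ACGTG or GCGTG was present in 27 of the 33 members with a window (81.8%), against 43.8% of all 32851 windows of the same length. The GC box GGGCGG was found in 23 of 33 windows (69.7%), against 35.7% of all windows. TGACG, part of the cAMP response element, was found in 12 (36.4%), against 20.8%, and the FOXO motif GTAAACA in 0, against 3.65%. A first exon listed in the files began within 250 bases of the RefSeq start in 32 of the 33 genes. Other first exons were listed for some genes. For Ldha, a first exon starting at chr7:46847131, outside the window shown, held 13.4%, 4.81% and 80.6% of first-exon FPKM across FSH and FBS libraries. It held 78.1% and 50.8% in untreated libraries 2 and 3, and was not listed in untreated library 1. These matches describe letters only.

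Each library listed 10475 to 11552 genes. Gene FPKM summed to 274530, 273357 and 390966 across FSH and FBS libraries, against 265079, 264904 and 268058 in untreated libraries. The FPKM given below and the main fit were not rescaled for the higher sum of FSH and FBS library 3. Libraries 1 and 2 of a group were far closer to each other than to library 3. Between libraries 1 and 2, 2.82% of genes differed by more than 2-fold in FSH and FBS cells and 4.54% in untreated cells; pairs with library 3 differed at 16% to 22.9% of genes. Libraries 1 and 2 were therefore averaged and counted as 1 sample, which leaves n = 2 samples a group. Leaving out library 3 of a group leaves 1 sample there, so such fits are given as effect sizes only. Fits with all 6 libraries as separate replicates count libraries 1 and 2 as independent, and their p-values may be too small. The labels do not state whether libraries stem from separate mice or dishes, and a p-value here reflects the spread among these samples alone, which may be technical. Granulosa markers summed to 515, 530 and 411 FPKM across FSH and FBS libraries 1 to 3, against 480.1, 510 and 594 FPKM in untreated libraries, and Foxl2 and Inhbb were not listed under their own identifiers. In bulk RNA such as this, fewer cells of a type and less RNA per cell cannot be told apart.

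In FSH and FBS cells the hexokinase gene Hk2 rose, while the lactate dehydrogenase gene Ldhb and the kinase gene Pdk4 fell. The other 25 tested members did not pass the test, which does not show that they were unchanged. Across all 9022 genes tested with limma, 1.68% were called higher and 0.687% lower (2.37% in either direction) at an adjusted p of 0.05, against 1 and 2 of 28 members, a count of few genes. More members stood apart without passing: in 18 of 28 (64.3%) every FSH and FBS library lay above every untreated library, against 29.4% of all genes tested. In 3 of 28 (10.7%) every FSH and FBS library lay below, against 9.54% of all genes, and in 7 the groups overlapped. An unadjusted p under 0.05 was reached upward by 12 of 28 members, against 12.1% of all genes, and downward by 2 of 28, against 4.31%. The log2 fold change was above 0 in 23 members (82.1%), against 67.2% of all genes. Its median was 0.69 over the members and 0.24 over all genes tested, and 20 of 28 members (71.4%) lay above that of all genes, against 50.0% of genes. Because the members were chosen with earlier results of these data known, these shares only describe them and are no independent test. Fold changes are on the log2(FPKM + 1) scale, which understates the change of low genes.

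**Figure D1:**
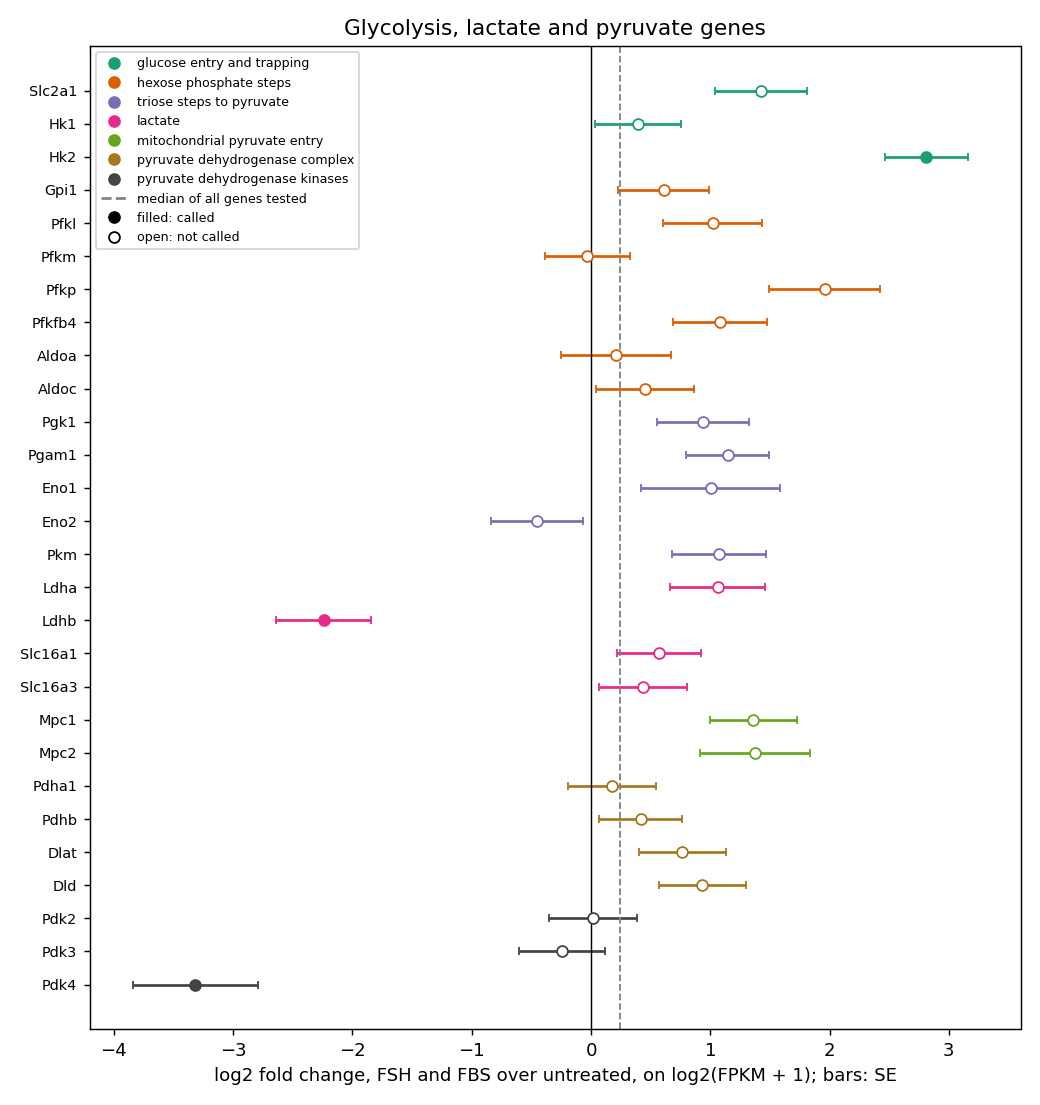
Log2 fold change of FSH and FBS over untreated on the log2(FPKM + 1) scale for the 28 tested members, in pathway order from glucose entry (top) to the pyruvate dehydrogenase kinases (bottom). Bars are standard errors from limma with n = 2 samples a group, filled points passed an adjusted p of 0.05, and the dashed line is the median of all genes tested, 0.24. Hk2 at 2.81 stands farthest to the right, and Ldhb at -2.24 and Pdk4 at -3.32 farthest to the left.

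Of the 3 tested genes of glucose entry and trapping, 1 passed the test, Hk2. It encodes hexokinase 2, which phosphorylates glucose and can bind the mitochondrial outer membrane. Hk2 had 33.5, 33.4 and 30.2 FPKM across FSH and FBS libraries 1, 2 and 3, against 4.60, 3.77 and 3.21 FPKM in untreated libraries 1, 2 and 3. The groups were far apart and each was tight. The means were 31.8 ± 2.31 FPKM in FSH and FBS cells and 3.70 ± 0.69 FPKM in untreated cells (SD, n = 2 samples each), an 8.60-fold difference, with a log2 fold change of 2.81 ± 0.35 (SE; limma, adjusted p = 0.0089). Its values came from the first exon, since no last exon was listed for it on its strand. Hk1, the widely expressed hexokinase, had 6.62, 5.83 and 4.99 FPKM across FSH and FBS libraries, against 3.61, 4.38 and 4.02 FPKM in untreated libraries. The groups did not overlap, but the log2 fold change of 0.39 ± 0.36 did not pass (limma, adjusted p = 0.64).

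Hk2 thus supplied 83.5%, 85.1% and 85.8% of the summed FPKM of Hk1 and Hk2 in FSH and FBS libraries, against 56.0%, 46.3% and 44.4% in untreated libraries. Every FSH and FBS library was above every untreated one. The sum of both genes was 37.4 ± 3.18 FPKM in FSH and FBS cells and 7.70 ± 0.67 FPKM in untreated cells (SD, n = 2 samples each), 4.85-fold higher. With 2 samples against 2, the exact two-sided permutation test cannot go below p = 0.333, which was its value for this share and for those of Pfkp, Ldhb and Pdk4. Slc2a1, which encodes the glucose transporter GLUT1, had 14.9, 15.5 and 21.8 FPKM across FSH and FBS libraries, against 8.07, 7.26 and 4.89 FPKM in untreated libraries. All FSH and FBS libraries were higher, and the log2 fold change was 1.43 ± 0.39 (limma, adjusted p = 0.12). Slc2a3, for the transporter GLUT3, was listed only in FSH and FBS libraries 1 and 2, with 0.067 and 0.73 FPKM.

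**Figure D2:**
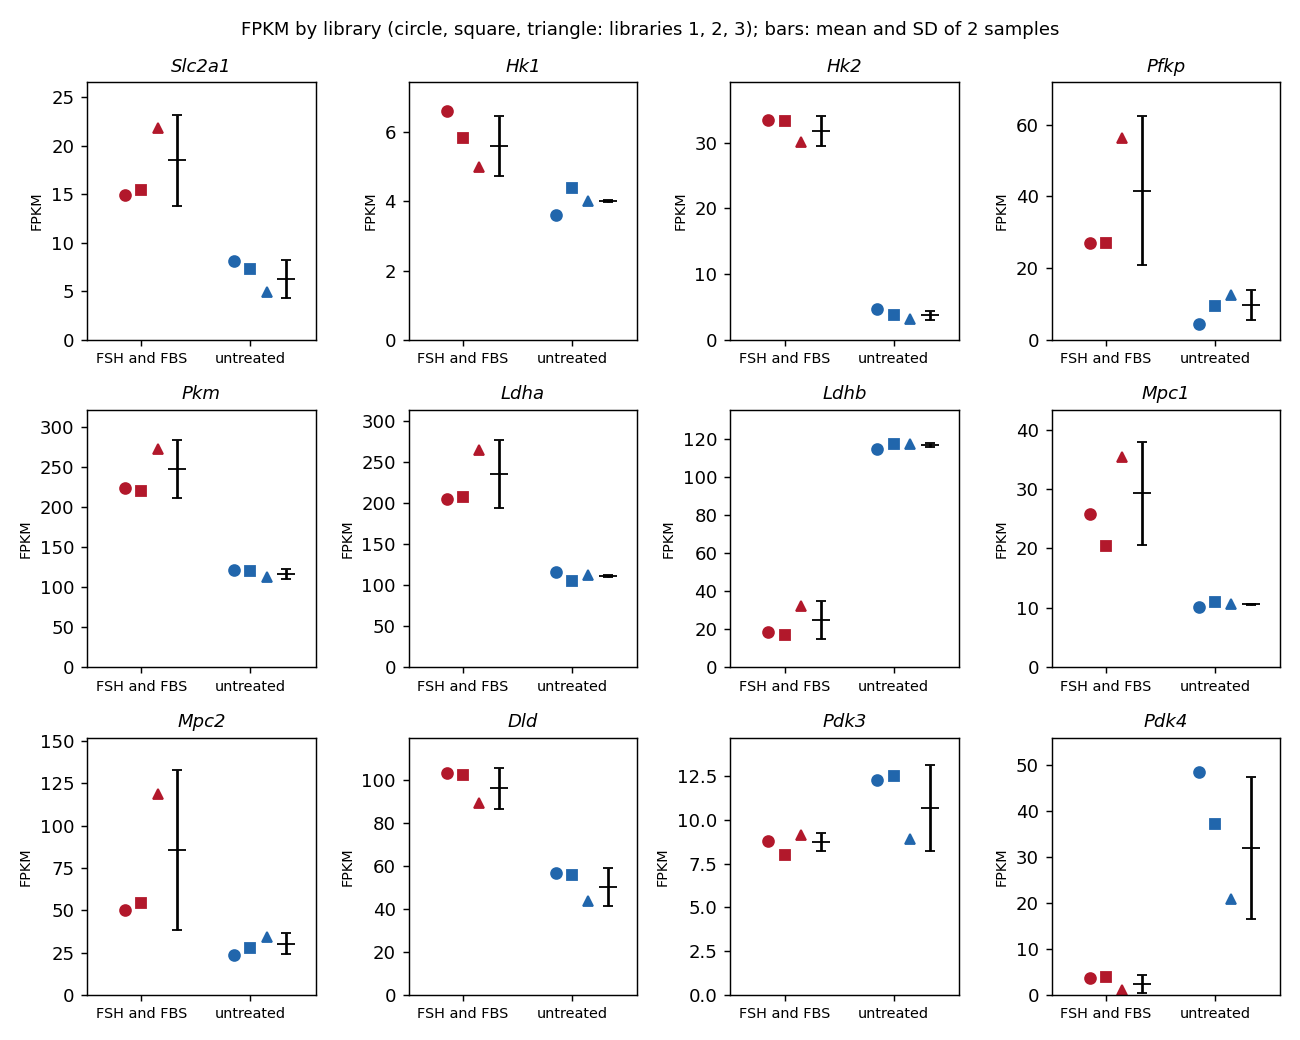
FPKM of 12 members in each library, FSH and FBS left and untreated right; circles, squares and triangles are libraries 1, 2 and 3, and black bars are the mean and SD of 2 samples, after libraries 1 and 2 were averaged. The axes start at 0 and differ between panels. Hk2 lies at 30.2 FPKM or more in FSH and FBS libraries and at 4.60 FPKM or less in untreated ones, Ldhb and Pdk4 show the opposite order, and Pdk3 overlaps.

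At the hexose phosphate steps the largest difference was in Pfkp, the platelet type of phosphofructokinase. It had 26.9, 26.9 and 56.3 FPKM across FSH and FBS libraries, against 4.30, 9.33 and 12.6 FPKM in untreated libraries. No untreated library reached an FSH and FBS one, and the log2 fold change of 1.96 ± 0.47 missed the threshold (limma, adjusted p = 0.079). The first and the last exon disagreed most in library 3 of both groups. The main first exon had 26.8, 26.8 and 4.17 FPKM across FSH and FBS libraries, against 4.30, 6.22 and 3.05 FPKM in untreated libraries. On that exon the groups overlapped. On first exons alone the log2 fold change of Pfkp was 1.25 (limma, adjusted p = 0.53), and without FSH and FBS library 3 it was 1.44. With all 6 libraries as separate replicates, which counts libraries 1 and 2 as independent, Pfkp passed (1.97, limma, adjusted p = 0.025).

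Pfkl, the liver type, had 18.9, 19.0 and 37.9 FPKM across FSH and FBS libraries, against 12.1, 11.3 and 13.9 FPKM in untreated libraries. Its log2 fold change was 1.02 ± 0.41 (limma, adjusted p = 0.28), and 0.54 without FSH and FBS library 3. Pfkm, the muscle type, had 8.83, 7.39 and 6.45 FPKM across FSH and FBS libraries, against 7.17, 7.13 and 7.71 FPKM in untreated libraries, and the groups overlapped (log2 fold change -0.03 ± 0.36; limma, adjusted p = 0.98). Together they put Pfkp at 49.3%, 50.5% and 55.9% of phosphofructokinase FPKM across FSH and FBS libraries, against 18.2%, 33.6% and 36.7% in untreated libraries. In FSH and FBS library 3 this share sets a last-exon Pfkp value against a first-exon Pfkl value. On first exons that library had 4.17 FPKM of Pfkp, 37.9 FPKM of Pfkl and 2.85 FPKM of Pfkm. The Pfkp shares of the groups then overlapped. The family sum was 77.3 ± 33 FPKM in FSH and FBS cells and 29.9 ± 6.03 FPKM in untreated cells (SD, n = 2 samples each).

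The bifunctional enzymes that set fructose 2,6-bisphosphate, an activator of phosphofructokinase, were low. Pfkfb4 had 1.40, 2.75 and 1.95 FPKM across FSH and FBS libraries, against 0.63, 0.78 and 0.19 FPKM in untreated libraries, without overlap (log2 fold change 1.08 ± 0.39; limma, adjusted p = 0.23; 2.13 with a pseudocount of 0.1). Pfkfb3 was listed at 4.91, 5.63 and 0.081 FPKM across FSH and FBS libraries, against 3.17 and 2.64 FPKM in untreated libraries 1 and 2. Pfkfb2 was listed in libraries 1 and 2 of both groups, at 2.56 and 3.21 FPKM in FSH and FBS cells, against 1.6 and 1.25 FPKM in untreated cells. Gpi1, the isomerase that makes fructose 6-phosphate, had 84.8, 85.4 and 123 FPKM across FSH and FBS libraries, against 67.3, 69.2 and 65.3 FPKM in untreated libraries (log2 fold change 0.61 ± 0.38; limma, adjusted p = 0.47; 0.35 without FSH and FBS library 3).

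Aldoa, the main aldolase, was the most abundant gene of this step, with 139.8, 180.5 and 197 FPKM across FSH and FBS libraries, against 108 and 113 FPKM in untreated libraries 1 and 2 and 215 FPKM in untreated library 3. The groups overlapped through that library (log2 fold change 0.21 ± 0.46; limma, adjusted p = 0.86; 0.057 when FSH and FBS library 3 was left out, 0.68 when untreated library 3 was), and the direction turned under all 3 rescalings of the libraries and on last exons alone. The listed last exon was far below the first exons, with 5.37, 4.59 and 2.31 FPKM across FSH and FBS libraries, against 6.62, 5.03 and 15.2 FPKM in untreated libraries. Forms that held the exon at chr7:126797974-126798126, in the files' coordinates, had 64.9, 122 and 4.96 FPKM across FSH and FBS libraries, against 67.3, 72.6 and 6.62 FPKM in untreated libraries. Library 3 was low in both groups. Aldoc, the brain type, was listed at 0.63 to 2.70 FPKM over the 6 libraries (log2 fold change 0.45 ± 0.41; limma, adjusted p = 0.63; 0.83 without untreated library 3).

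From triose phosphate to pyruvate, 4 of 5 tested genes lay above the median of all genes, and none passed. Pkm, the pyruvate kinase gene, had 224, 221 and 273 FPKM across FSH and FBS libraries, against 121, 121 and 113 FPKM in untreated libraries. The groups were well separated (log2 fold change 1.07 ± 0.40; limma, adjusted p = 0.24). It was listed with 1 first exon, 1 last exon and no cassette, so its M1 and M2 forms were not separated. Pgam1, phosphoglycerate mutase, had 83.0, 87.3 and 91.6 FPKM across FSH and FBS libraries, against 41.9, 41.6 and 37.1 FPKM in untreated libraries (log2 fold change 1.15 ± 0.35; limma, adjusted p = 0.16). Pgk1, phosphoglycerate kinase, had 108, 115 and 152 FPKM across FSH and FBS libraries, against 75.8, 75.0 and 60.5 FPKM in untreated libraries, and again no values overlapped (log2 fold change 0.94 ± 0.38; limma, adjusted p = 0.28).

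The enolases were less clear. Eno1, the ubiquitous enolase, had 158, 175 and 282 FPKM across FSH and FBS libraries, against 82.3, 40.6 and 188 FPKM in untreated libraries, and the groups overlapped. Its last exon alone had 39.3, 56.0 and 217 FPKM across FSH and FBS libraries, against 81.7, 40.3 and 90.9 FPKM in untreated libraries. In untreated library 3, a first exon farther downstream held 48.4% of first-exon FPKM. The log2 fold change of Eno1, 1.0 ± 0.58 (limma, adjusted p = 0.44), was 0.63 without FSH and FBS library 3 and 1.80 without untreated library 3. Eno2, the neuronal enolase, had 3.65, 3.92 and 3.77 FPKM across FSH and FBS libraries, against 6.30, 7.67 and 4.34 FPKM in untreated libraries. It lay lower in all FSH and FBS libraries without passing (log2 fold change -0.45 ± 0.38; limma, adjusted p = 0.61; -0.74 without untreated library 3).

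Of the remaining members at this step, Gapdh was listed only in untreated library 3, at 0.46 FPKM, so these tables do not measure it. Tpi1, triose phosphate isomerase, was listed under its own identifier only in untreated library 2. In the other 5 libraries the events at its locus, chr6:124810586-124814158, carried the identifier of the neighbouring gene Usp5. Taking those events by position gave 158, 80.3 and 195 FPKM across FSH and FBS libraries, against 85.2, 143.5 and 102 FPKM in untreated libraries, with overlap.

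At the lactate step the shares of Ldha and Ldhb in their summed RNA differed between the groups, while the sum overlapped. Ldhb, which encodes subunit B, had 18.6, 17.1 and 32 FPKM across FSH and FBS libraries, against 115, 118 and 118 FPKM in untreated libraries. The groups did not come near each other. The means were 24.9 ± 10.02 FPKM in FSH and FBS cells and 117 ± 1.05 FPKM in untreated cells (SD, n = 2 samples each), 4.69-fold lower, with a log2 fold change of -2.24 ± 0.40 (limma, adjusted p = 0.029). Without untreated library 3 the Ldhb value was -2.23. The call was lost with median of ratios rescaling (-2.51, limma, adjusted p = 0.056).

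Ldha, which encodes subunit A, had 205, 208 and 265 FPKM across FSH and FBS libraries, against 116, 105 and 112 FPKM in untreated libraries. All FSH and FBS libraries were higher, without passing the test (log2 fold change 1.06 ± 0.40; limma, adjusted p = 0.25). Ldhb therefore made up 8.32%, 7.61% and 10.8% of the summed FPKM of Ldha and Ldhb in FSH and FBS libraries, against 49.8%, 52.8% and 51.2% in untreated libraries. The Ldha to Ldhb ratio was 11, 12.1 and 8.27 in FSH and FBS libraries, against 1.01, 0.90 and 0.95 in untreated libraries. The sum of both genes was 224, 225 and 297 FPKM across FSH and FBS libraries, against 231, 223 and 230.1 FPKM in untreated libraries. This was a 1.14-fold difference with overlapping groups. The exact two-sided permutation test (p = 1) cannot decide this with 2 samples a group.

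Markers of most other cells differed between the groups, and the oocyte markers did so mainly in FSH and FBS libraries 1 and 2. Oocyte markers (25 genes) summed to 2.53, 3.15 and 29.4 FPKM across FSH and FBS libraries, with 2, 3 and 10 genes listed, against 31.6, 32.9 and 42.4 FPKM in untreated libraries, with 18, 15 and 14 listed. Zp3 was listed in untreated libraries only. Gdf9 had 0.26, 0.16 and 8.77 FPKM across FSH and FBS libraries, against 4.16, 5.10 and 6.06 FPKM in untreated libraries. Kit went the other way. It had 2.27 and 2.97 FPKM in FSH and FBS libraries 1 and 2, most of the oocyte sum there, against 1.17, 1.72 and 0.60 FPKM in untreated libraries. In FSH and FBS library 3, where the oocyte sum was 29.4 FPKM, Ldhb was 32 FPKM, the highest of its group, and Pdk4 1.03 FPKM, the lowest. Theca and stroma markers (10 genes) summed to 14.3, 14.5 and 17.5 FPKM across FSH and FBS libraries, against 74.5, 75.2 and 61.3 FPKM in untreated libraries, most of it Acta2; Cyp17a1 was listed in 1 library only, untreated library 1, at 0.032 FPKM. Leukocyte markers (15 genes) summed to 2.96 to 7.50 FPKM across FSH and FBS libraries, against 9.11 to 12.6 FPKM in untreated libraries. Endothelial markers (10 genes) summed to 2.70 to 3.37 FPKM across FSH and FBS libraries, against 0.022 to 0.98 FPKM in untreated libraries, and erythroid markers (6 genes) to at most 1.92 FPKM in any library. The part of the oocyte, theca, stroma, leukocyte and endothelial markers in the Ldhb and Pdk4 results was not tested.

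**Figure D3:**
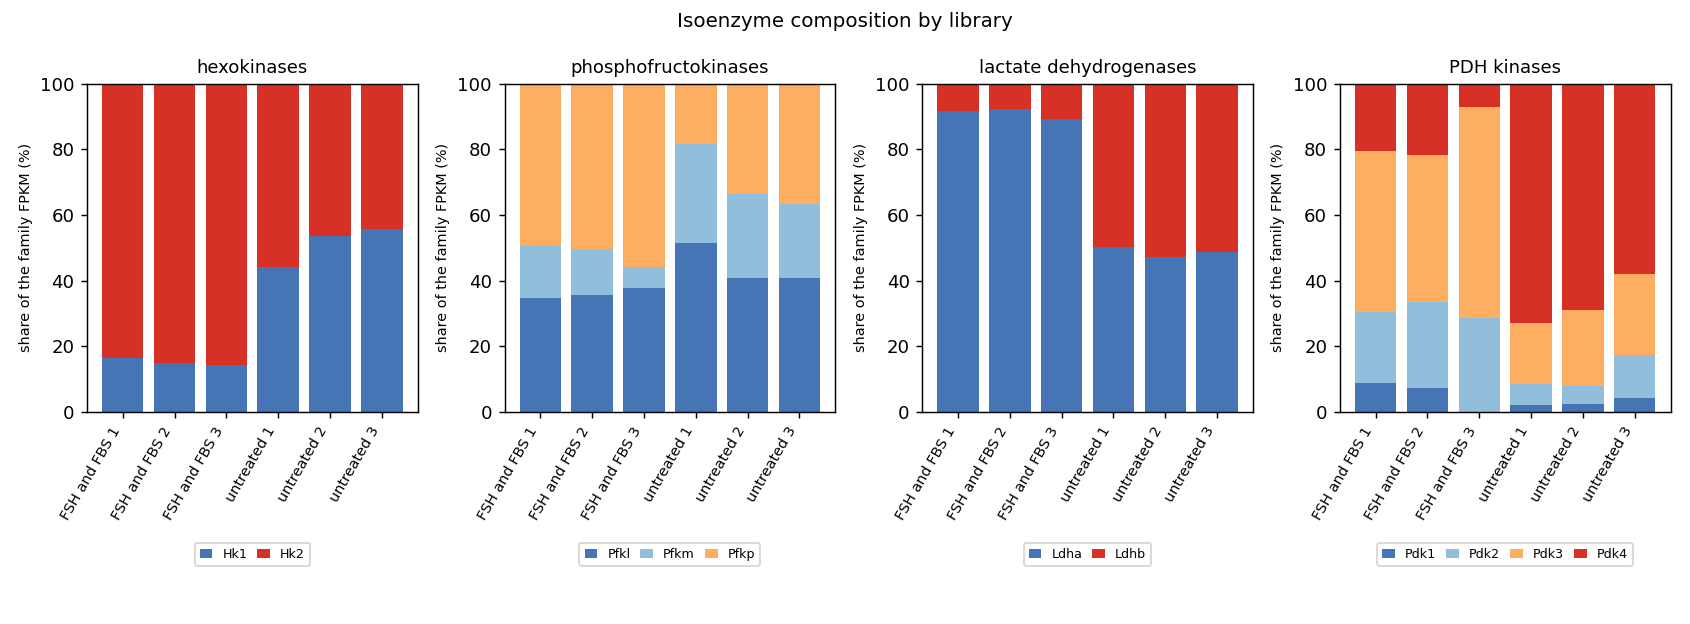
Share of each isoenzyme in the summed FPKM of its family in each library, in percent, for hexokinases, phosphofructokinases, lactate dehydrogenases and pyruvate dehydrogenase (PDH) kinases, with the 3 FSH and FBS libraries left of the 3 untreated ones. Hk2 and Pfkp take larger shares and Ldhb and Pdk4 smaller shares in every FSH and FBS library than in any untreated library. For Pfkp this did not hold on first exons alone. Pdk1 was not listed in FSH and FBS library 3 and is drawn there as absent.

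The monocarboxylate transporters carry lactate and pyruvate across the plasma membrane. Slc16a1, for MCT1, had 14.1, 15.2 and 12.7 FPKM across FSH and FBS libraries, against 10.02, 9.86 and 7.88 FPKM in untreated libraries (log2 fold change 0.57 ± 0.35; limma, adjusted p = 0.47). Slc16a3, for MCT4, had 2.25, 2.44 and 2.11 FPKM across FSH and FBS libraries, against 1.28, 1.72 and 1.27 FPKM in untreated libraries (log2 fold change 0.44 ± 0.37; limma, adjusted p = 0.60). Both were higher in all FSH and FBS libraries without passing, and the Slc16a3 share of their sum was 13.7% to 14.3% in FSH and FBS libraries, against 11.3% to 14.9% in untreated libraries.

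Both subunits of the mitochondrial pyruvate carrier lay well above the median of all genes. Mpc1 had 25.8, 20.4 and 35.4 FPKM across FSH and FBS libraries, against 10.1, 11 and 10.6 FPKM in untreated libraries (log2 fold change 1.36 ± 0.36; limma, adjusted p = 0.11). Mpc2 had 49.9, 54.2 and 119 FPKM across FSH and FBS libraries, against 23.6, 27.8 and 34.4 FPKM in untreated libraries (log2 fold change 1.38 ± 0.46; limma, adjusted p = 0.20). The groups were separate for both genes. Without FSH and FBS library 3 the Mpc2 log2 fold change was 0.79.

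Among the subunits of the pyruvate dehydrogenase complex, Dld, the E3 subunit that other dehydrogenase complexes share, had 103, 102 and 89.4 FPKM across FSH and FBS libraries, against 56.9, 55.9 and 43.9 FPKM in untreated libraries (log2 fold change 0.93 ± 0.36; limma, adjusted p = 0.26). Dlat, the E2 subunit, had 16.2, 15.7 and 14.6 FPKM across FSH and FBS libraries, against 10.2, 11 and 6.89 FPKM in untreated libraries (log2 fold change 0.77 ± 0.37; limma, adjusted p = 0.35; 0.49 without untreated library 3). The genes of the E1 subunits moved less. The log2 fold change was 0.42 ± 0.35 for Pdhb (limma, adjusted p = 0.60) and 0.17 ± 0.37 for Pdha1 (limma, adjusted p = 0.85), whose groups overlapped. The Pdha1 value was below 0 under all 3 rescalings and without untreated library 3.

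Pdk4, a kinase that is typically high in fasted tissues, had the steepest fall of all members. It had 3.72, 3.85 and 1.03 FPKM across FSH and FBS libraries, against 48.5, 37.3 and 21.0 FPKM in untreated libraries. The groups were far apart, with a wide spread among untreated libraries. The means were 2.41 ± 1.94 FPKM in FSH and FBS cells and 31.9 ± 15.5 FPKM in untreated cells (SD, n = 2 samples each), 13.3-fold lower, with a log2 fold change of -3.32 ± 0.53 (limma, adjusted p = 0.020). It was -2.70 without FSH and FBS library 3, and with libraries scaled to equal sums it no longer passed (-3.51, limma, adjusted p = 0.059).

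The other kinases did not follow it. Pdk2 had 3.90, 4.70 and 4.08 FPKM across FSH and FBS libraries, against 4.32, 2.85 and 4.75 FPKM in untreated libraries (log2 fold change 0.02 ± 0.37; limma, adjusted p = 0.99). Pdk3 had 8.81, 7.98 and 9.11 FPKM across FSH and FBS libraries, against 12.3, 12.5 and 8.92 FPKM in untreated libraries (log2 fold change -0.24 ± 0.36; limma, adjusted p = 0.78; -0.46 without untreated library 3). The groups overlapped for both. Pdk1 was listed at 1.59 and 1.28 FPKM in libraries 1 and 2 of FSH and FBS cells, against 1.37, 1.37 and 1.5 FPKM in untreated libraries. Pdk4 made up 20.6%, 21.6% and 7.25% of the FPKM of the 4 kinases in FSH and FBS libraries, against 73.0%, 69.0% and 58.0% in untreated libraries, and the kinase sum was 16.1 ± 2.61 FPKM in FSH and FBS cells and 48.2 ± 17.1 FPKM in untreated cells (SD, n = 2 samples each).

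Beyond these genes, 8 lists of neighbouring pathways, also chosen with earlier results known, held 129 genes, of which 89 were tested. In them limma called 1 gene higher and 1 lower, both among 13 tested regulators of glycolysis, against 2.37% of all genes in either direction. An unadjusted p under 0.05 was reached upward by 17 of the 89, against 12.1% of all genes, and downward by 3, against 4.31%. Arrdc4 and Txnip encode related arrestins that restrain glucose uptake, and they moved in opposite directions. Arrdc4 had 25.8, 29.1 and 44.9 FPKM across FSH and FBS libraries, against 3.30, 4.11 and 4.44 FPKM in untreated libraries (log2 fold change 2.84 ± 0.38; limma, adjusted p = 0.011). Txnip had 21.9, 22.4 and 16.4 FPKM across FSH and FBS libraries, against 87.2, 101 and 61.6 FPKM in untreated libraries (log2 fold change -1.95 ± 0.38; limma, adjusted p = 0.042). The Txnip call was lost without untreated library 2 (-1.89, limma, adjusted p = 0.050) and under 6 further settings. Without untreated library 3 the Txnip value was -2.25. Hif1a, a hypoxia-inducible factor whose known targets include many glycolytic genes, had 209.5, 218 and 143 FPKM across FSH and FBS libraries, against 63.1, 57.8 and 24.6 FPKM in untreated libraries; it did not pass (log2 fold change 2.15 ± 0.50; limma, adjusted p = 0.072). Without untreated library 3 the Hif1a value was 1.52, and without FSH and FBS library 3 it was 2.44. Hif1a passed with all 6 libraries as separate replicates (2.03, limma, adjusted p = 0.014), which counts libraries 1 and 2 as independent.

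**Figure D4:**
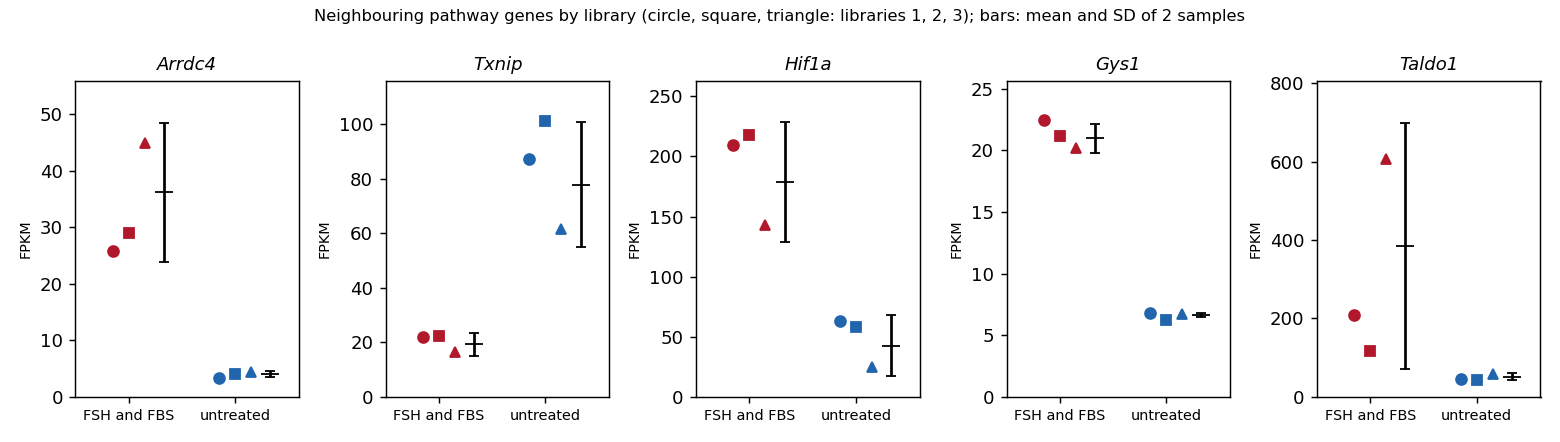
FPKM in each library of 5 genes from the neighbouring lists, FSH and FBS left and untreated right; symbols are libraries 1 to 3, and bars are the mean and SD of 2 samples. Arrdc4 was called higher and Txnip lower; Hif1a, Gys1 and Taldo1 were separated between groups without passing.

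In the other 7 lists limma called 0 genes. Beside a median log2 fold change of 0.24 over all genes tested, the median was 0.62 over 9 tested pentose phosphate genes (2 with an unadjusted p under 0.05, both higher) and 0.62 over 8 genes of the NADH shuttles (2, both higher). It was 0.38 over 17 genes of the tricarboxylic acid cycle (2, both higher), 0.45 over 13 hexosamine genes (2 higher and 1 lower) and 0.18 over 13 glycogen genes (2, both higher). It was 0.82 over 9 other isoenzymes and partners (3, all higher) and 0.22 over 7 pyruvate dehydrogenase partners (1 higher and 1 lower). Taldo1 is the transaldolase of the pentose phosphate pathway. It had 208, 117 and 607 FPKM across FSH and FBS libraries, against 45.0, 44.2 and 57.9 FPKM in untreated libraries. The log2 fold change was 2.61 ± 0.61 (limma, adjusted p = 0.076). Taldo1 passed without FSH and FBS library 2 (2.78, limma, adjusted p = 0.047), and was at 1.66 without FSH and FBS library 3. Gys1, glycogen synthase, had 22.5, 21.1 and 20.2 FPKM across FSH and FBS libraries, against 6.81, 6.21 and 6.76 FPKM in untreated libraries (log2 fold change 1.52 ± 0.34; limma, adjusted p = 0.065). Both genes were higher in every FSH and FBS library. Taldo1 also passed with last exon sums (2.62, limma, adjusted p = 0.048) and with all 6 libraries as separate replicates (2.31, limma, adjusted p = 0.033). Gys1 passed over genes with a mean of at least 5 FPKM (limma, adjusted p = 0.036) and with last exon sums (1.71, limma, adjusted p = 0.027). It also passed with all 6 libraries as separate replicates (1.55, limma, adjusted p = 0.0019), a fit that counts libraries 1 and 2 as independent. Neither gene passed under any of the 3 rescalings. Taldo1 was at 2.34 with median of ratios rescaling (limma, adjusted p = 0.20) and Gys1 at 1.24 with equal sums (limma, adjusted p = 0.27).

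The remaining genes with the smallest adjusted p of each list also did not pass in limma. Emb, a partner of the monocarboxylate transporters, was at 1.57 on the log2 scale (adjusted p = 0.088) and Pck2, mitochondrial phosphoenolpyruvate carboxykinase, at 1.34 (adjusted p = 0.096). The malic enzyme genes differed in sign, with Me2 at -1.68 (limma, adjusted p = 0.14) and Me1 at 0.70 (limma, adjusted p = 0.37). Without FSH and FBS library 3 the Me2 value was -2.29. In the hexosamine list, Gfpt2 was at 1.04 (adjusted p = 0.22), Ogt, the O-GlcNAc transferase, at -1.27 (adjusted p = 0.28) and Gnpnat1 at 0.87 (adjusted p = 0.28). The log2 fold changes in limma of the other named genes were 1.03 for Minpp1, 1.51 for Pgp, 1.05 for H6pd, 0.91 for G6pdx, 1.08 for Pgm1, -0.82 for Phka1, 0.98 for Ogdh, 0.98 for Idh3a, 0.51 for Suclg2, 1.0 for Gpd2, 0.96 for Got1 and 0.88 for Gpd1l, with adjusted p between 0.17 and 0.50. Pgp had 69.2 FPKM in FSH and FBS library 3, against 12.6 and 15.5 FPKM in FSH and FBS libraries 1 and 2. Its untreated values were 9.10 to 11.6 FPKM. Without FSH and FBS library 3 the log2 fold change was 0.40 for Pgp. Without the same library it was -0.60 for Ogt and -0.52 for Phka1. Without untreated library 3 it was 0.53 for G6pdx, 0.54 for Got1 and 0.54 for Gpd1l.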

How the data were processed

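RNA-seq of mouse cumulus cells was analysed in 6 libraries, 3 a group. HISAT2 2.0.1 is the aligner named in the submitters' processing notes, and the transcript assembler and the genome build are not given in the sources used here. Per the file headers, the deposited tables list transcript events with an FPKM value; they list no event at 0, so a missing event was treated as missing. Depth is unknown, and no counting interval is given. The small-RNA libraries were not analysed here.

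Each gene was given the higher of the sums of its first-exon and its last-exon FPKM. All 511 first-exon and last-exon events of the members lay within 1000 bases of their RefSeq GRCm38.p6 intervals. Libraries 1 and 2 of a group were averaged. Testing covered the 9022 genes present in all 6 libraries at a mean of 1 FPKM or more, and was done with limma 3.58.1 in R 4.3.3 on log2(FPKM + 1), with an intensity trend, two-sided, with Benjamini-Hochberg adjustment over all genes and a threshold of 0.05. The fit was tested on simulated data under 3 noise models. In 1 of them, which gave each gene its own moderated spread, false calls were more frequent than the threshold allows. The fit recovered 1.2% to 17.8% of simulated 2-fold changes and 33.4% to 96.2% of 4-fold changes. A gene that did not pass may therefore still differ. Members and lists were chosen with earlier results of these data known. Full values are given for members called, for their isoenzymes, for the largest fold changes and for the most abundant member of each step; of each other list, the 3 tested genes with the smallest adjusted p are named. Alternatives covered scaling, filters, pseudocount, exon sums, replicate structure and leaving out each library.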

Additional observations from a re-analysis of the deposited data

How the results depend on the processing

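Over all genes 214 passed, 71.0% of them higher. This count was 1323 with all 6 libraries as separate replicates, 91 with median of ratios rescaling, 104 with equal sums, 63 with first exon sums only, and 75 (without untreated library 3) to 384 (without FSH and FBS library 3) when 1 library was left out. The higher share was 54.9% with median of ratios, 56.7% with equal sums and 56.0% with quantile normalization. The median of all genes was 0.0050, -0.025 and 0.0039 under these 3 rescalings, against 0.24. Among members, 3 passed, while 12 did with all 6 libraries and 1 (Hk2) with first exon sums only.

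The replicate block gave 1447 genes and 9 members with 4 samples, and 2100 and 15 with all 6 libraries. Same-numbered samples deviated together after averaging (r = 0.51 over genes), but that leaves a pair of numbers and no label ties them, so the block was not used. Across single libraries r was 0.32, 0.31 and 0.51 for equal numbers, 0.31 and 0.33 for numbers 1 and 2 crossed, and -0.44 to -0.36 for number 3 crossed with 1 or 2. Library 3 of each group thus correlated best with its own number, and libraries 1 and 2 were not told apart. With 4 samples the block added calls for Slc2a1, Pfkl, Pfkp (limma, adjusted p = 0.00047), Pgam1, Mpc1 and Mpc2, and for Hif1a, Gys1 and Taldo1 among neighbouring genes.

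The Hk2 call held under each setting that tested it (limma, adjusted p up to 0.049); last exon sums could not test it. Ldhb was also lost with first exon sums (limma, adjusted p = 0.073) and with unlisted genes as 0 (0.053), and Pdk4 with first exon sums (0.073). Of 494 member values under alternatives, 443 kept direction and side of the threshold, 27 newly passed, 6 no longer passed and 18, in 4 members, changed sign. Pfkm was 0.029 with all 6 libraries, with or without the block. Under median of ratios, equal sums and quantile normalization, Aldoa was -0.063, -0.10 and -0.23, Pdha1 -0.070, -0.10 and -0.027, and Pdk2 -0.21, -0.23 and -0.16. Aldoa was -1.24 with last exon sums, which were far below its first exon sums. With 1 library left out, Pfkm ranged from -0.092 to 0.11, Pdha1 from -0.087 to 0.22 and Pdk2 from -0.091 to 0.18. The cause was not tested. The member median stayed between 0.39 and 0.94, and the share differences of Hk2, Pfkp, Ldhb and Pdk4 kept their direction. On first exons alone the Pfkp shares of single libraries overlapped between the groups. Alternatives for the neighbouring genes were added after seeing the data.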
